A study of Homo sapiens with 4 samples.

Results

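Semaphorins are signalling proteins, first known for steering growing axons, that act through plexins, receptors that regulate small GTPases, often with a neuropilin as the part of the receptor that binds the ligand. Secreted class 3 semaphorins bind neuropilins, which also bind vascular endothelial growth factors, whereas the membrane-bound class 4 members and the lipid-anchored SEMA7A act without them. In tumours, class 3 semaphorins are known both for restraining and for aiding vessel growth and cell movement. The 10 genes described here are the listed ligands SEMA3A, SEMA3C, SEMA3F, SEMA4B and SEMA7A and the listed receptors NRP1, NRP2, PLXNA1, PLXNB2 and PLXND1. All 10 had a row among the 15279 named rows of the deposited table, and all 10 passed the filter on low counts that left 14424 genes for testing.

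Expression levels came from bulk RNA-seq of cultured human cell lines. The comparison sets MDA231-BR, the line MDAMB231Br labelled as a brain metastasis of breast cancer, against MDA231-P, the parental breast cancer line MDAMB231 (MDA-MB-231, a triple-negative line with mesenchymal traits). Each line had 2 libraries with no treatment labelled, and both were grown in DMEM with 10% FBS and PS. Each side is a single line, so what is peculiar to the line and what goes with brain metastasis cannot be told apart. Nothing in the labels tells whether paired libraries were grown apart, so each p-value reflects spread between libraries that may be technical. The brain metastatic libraries are called BR-A and BR-B and the parental ones P-A and P-B, lettered in column order.

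Named genes received 28107820 and 25835225 reads in BR-A and BR-B, against 30771290 and 27554570 in P-A and P-B. BR-B stood apart from BR-A. The median absolute log2 difference over the tested genes was 0.38 between those libraries and 0.26 between the parental libraries, against 0.47 between the means of the lines. BR-B held 0.170% of its reads in 15 mitochondrial pseudogenes, against 0.0483% in BR-A and 0.0425% to 0.0431% in the parental libraries, and 10 interferon-stimulated genes summed to 2541 CPM (reads scaled to library size) there, against 358 CPM in BR-A and 412.5 to 444 CPM in the parental libraries. Of 6 marker genes of the parental line, all were detected in every library. VIM, a mesenchymal marker, was called higher, with normalized counts of 118095 and 119552 in BR-A and BR-B, against 42476 and 38423 in P-A and P-B. CAV1, the caveolin gene, was called lower, with 10799 and 9773 in BR-A and BR-B, against 27966 and 27283 in P-A and P-B. CD44, KRT18, KRT8 and AXL did not pass, with log2 fold changes of 0.88, 0.35, -0.41 and -0.19. Of the epithelial, luminal and HER2 genes, CDH1 had at most 14.8 and ESR1 at most 26.5. EPCAM had 91.2 and 227 in BR-A and BR-B, against 333 and 398 in P-A and P-B (log2 fold change -1.33, adjusted p = 0.0756 by limma-trend). ERBB2, the HER2 gene, had 990 and 1233 in BR-A and BR-B, against 1239 and 955 in P-A and P-B (0.02, adjusted p = 0.963 by limma-trend). Of the neuronal markers, SYP had 12 to 28 reads in any library, but MAP2 was called higher, with 137 and 108 in BR-A and BR-B, against 24.7 and 29.1 in P-A and P-B (2.14, adjusted p = 0.0101). Of the endothelial markers, CDH5, which defines endothelium, had 0 to 5 reads in any library. PECAM1, of the same list, had 193 and 218 in BR-A and BR-B, against 70.8 and 146 in P-A and P-B. It did not pass (log2 fold change 1.00, adjusted p = 0.128 by limma-trend). The part of these marker genes in the results was not tested. In bulk RNA, fewer cells of a type and less RNA per cell cannot be told apart.

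The neuropilins rose and SEMA3F fell in brain metastatic cells. NRP1, a coreceptor of class 3 semaphorins and of VEGFA, rose 3.31-fold, and NRP2, the coreceptor that SEMA3F binds, rose 1.91-fold by the ratio of means. SEMA3F, a secreted semaphorin known for repelling endothelial and tumour cells, fell to 0.249 times its parental mean. The other 4 ligands and the 3 plexins did not pass the test. Of the 10 genes, 2 were called higher and 1 lower by limma-trend (adjusted p below 0.05 over all tested genes), against 8.61% of all tested genes called higher and 5.80% called lower, or 14.4% called in all. With P-A or P-B left out, none of the 10 was called, and over all genes 421 (2.92%) or 429 (2.97%) were, against 2079 with 4 libraries. Both brain metastatic values lay above both parental values for 2 of the 10 genes, against 31.7% of all tested genes, and below both for 4 of them, against 29.7%.

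NRP1 had normalized counts (reads divided by a size factor per library) of 13493 and 24781 in BR-A and BR-B, against 5838 and 5739.6 in P-A and P-B. The lines did not overlap, and the brain metastatic libraries lay much further apart than the parental ones. The means were 19137 ± 7982 in brain metastatic and 5789 ± 69.3 in parental cells (SD, n = 2 each), with a log2 fold change of 1.66 ± 0.30 (SE) and an adjusted p of 0.0111 by limma-trend. On the log2 scale NRP1 was 1.22 above the parental mean in BR-A and 2.10 above it in BR-B, so the increase was present in each. A fit without BR-A or BR-B takes its spread from the parental pair alone, so it cannot tell whether the call holds. The call was lost without P-A (log2 fold change 1.67) or P-B (1.65). A gap between the brain metastatic libraries larger than that of NRP1 was found in 14.8% of tested genes.

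NRP2 had normalized counts of 1822 and 2086 in BR-A and BR-B, against 1049 and 998 in P-A and P-B. Here both pairs of libraries were close together and the lines did not overlap. The means were 1954 ± 187 in brain metastatic and 1023 ± 35.7 in parental cells (SD, n = 2 each), with a log2 fold change of 0.93 ± 0.23 (SE) and an adjusted p of 0.0322 by limma-trend. The log2 fold change was 1.03 without BR-A and 0.83 without BR-B, in fits whose spread comes from the parental pair alone. The call was lost without P-A (0.97) or P-B (0.89).

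SEMA3F had normalized counts of 63.4 and 50.9 in BR-A and BR-B, against 247 and 210.5 in P-A and P-B. All 4 values are low, from 66 and 48 reads in BR-A and BR-B and 290 and 217 reads in P-A and P-B, yet the lines did not overlap. The means were 57.1 ± 8.85 in brain metastatic and 229 ± 26.1 in parental cells (SD, n = 2 each), with a log2 fold change of -1.99 ± 0.33 (SE) and an adjusted p of 0.00773 by limma-trend. The log2 fold change was -2.14 without BR-A and -1.83 without BR-B, where again the parental pair alone gives the spread. The call was lost without P-A (-1.87) or P-B (-2.10).

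The sequence just before the start of a called gene shows what its promoter is made of. RefSeq windows (GRCh38.p14) were matched for 8 of the 10 genes, all but SEMA3A and NRP1, as 14 windows because some genes have several starts. Of the called genes, NRP2 has 1 window and SEMA3F has 3, of which the one furthest upstream is shown. The 250 bases before the annotated start are printed 5′ to 3′ for NRP2 at chr2:205682251-205682500 (+ strand) and for SEMA3F at chr3:50154808-50155057 (+ strand), with every GC box, GGGCGG on either strand, in capitals.
NRP2: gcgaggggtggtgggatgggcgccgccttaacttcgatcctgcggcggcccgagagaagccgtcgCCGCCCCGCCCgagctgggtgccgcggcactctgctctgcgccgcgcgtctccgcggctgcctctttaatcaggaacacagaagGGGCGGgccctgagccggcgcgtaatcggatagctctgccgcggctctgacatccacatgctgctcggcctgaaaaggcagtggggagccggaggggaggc
SEMA3F: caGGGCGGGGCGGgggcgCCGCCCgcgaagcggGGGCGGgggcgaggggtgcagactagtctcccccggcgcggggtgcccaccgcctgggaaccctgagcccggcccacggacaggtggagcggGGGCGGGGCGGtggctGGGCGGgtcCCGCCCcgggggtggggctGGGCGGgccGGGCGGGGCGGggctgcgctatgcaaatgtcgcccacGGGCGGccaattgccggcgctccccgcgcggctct
The NRP2 window was 70.0% G and C with 3 GC boxes, and the SEMA3F window 82.0% with 12, counting overlapping matches; the median over all 35116 promoter windows was 58.0%. A GC box, the type of site that SP1 binds, was found in 42.6% of all windows. Neither window held TATAAA, found in 10.7% of all windows, TGACTCA, the AP-1 site, found in 4.2%, or CACGTG, an E-box, found in 6.34%. The other windows of SEMA3F held 2 and 0 GC boxes. These are letters in a window and not measured sites, and gene counts do not tell which start the cells used.

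Among the secreted ligands, SEMA3A, which signals through NRP1 and class A plexins, differed between the brain metastatic libraries rather than between the lines. It had normalized counts of 256 and 955 in BR-A and BR-B, against 343 and 420.0 in P-A and P-B. BR-A lay below both parental libraries and BR-B above both, so the lines overlapped. The log2 fold change was 0.38 with a 95% interval from -0.85 to 1.62 (adjusted p = 0.659 by limma-trend). It turned to -0.56 without BR-B and reached 1.33 without BR-A. A larger gap between the brain metastatic libraries was found in 2.09% of tested genes, and the part of BR-B's interferon and mitochondrial pseudogene reads in it was not tested.

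SEMA3C, a secreted semaphorin known for aiding cell movement, had normalized counts of 3403 and 4093 in BR-A and BR-B, against 4789.8 and 4544 in P-A and P-B. Both brain metastatic values lay below both parental values. The log2 fold change of -0.32 had an interval from -0.83 to 0.19 and did not pass (adjusted p = 0.351 by limma-trend).

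The membrane-bound ligands had the narrowest differences. SEMA4B, a class 4 semaphorin, had normalized counts of 1159 and 1396 in BR-A and BR-B, against 1163 and 1269.8 in P-A and P-B. The lines overlapped, and the log2 fold change was 0.07 with an interval from -0.47 to 0.60 (adjusted p = 0.871 by limma-trend). SEMA7A, which signals through PLXNC1 and the integrin subunit ITGB1, had 1221 and 1144 in BR-A and BR-B, against 1345 and 1287 in P-A and P-B. The brain metastatic values were both the lower, with a log2 fold change of -0.15 and an interval from -0.67 to 0.36 (adjusted p = 0.670 by limma-trend). For both genes the interval leaves out a doubling or a halving, which are 1 and -1 on the log2 scale. It rests on spread between libraries that may be technical, so it may not cover variation between cultures.

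**Figure D1:**
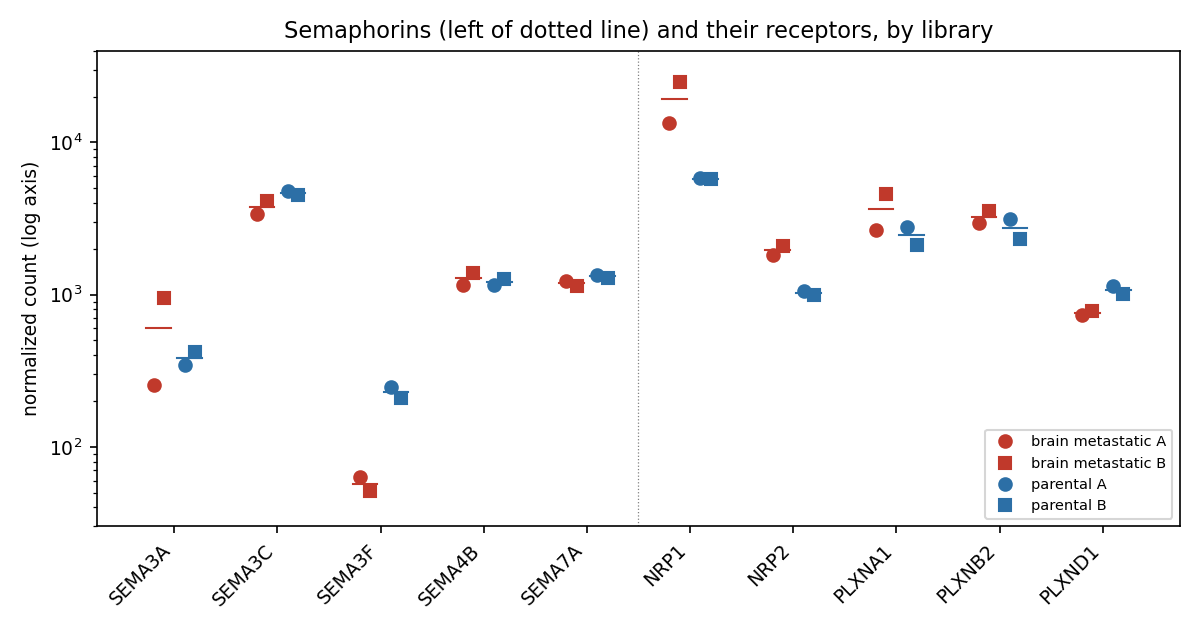
Normalized counts (vertical, log axis) of the 5 semaphorins and 5 receptors in the 2 brain metastatic libraries (red) and the 2 parental libraries (blue), with circles for libraries A, squares for libraries B and a bar at each line's mean. NRP1 and NRP2 lie higher and SEMA3F lower in both brain metastatic libraries, and the SEMA3A values of 256 and 955 enclose the parental ones.

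Among the signal-transducing receptors, PLXNA1, the class A plexin that partners the neuropilins, had normalized counts of 2664 and 4612 in BR-A and BR-B, against 2794 and 2120.5 in P-A and P-B. BR-A lay between the parental libraries and BR-B above them. The log2 fold change was 0.53 with an interval from -0.18 to 1.23 (adjusted p = 0.273 by limma-trend). Without BR-A the log2 fold change was 0.92, and without BR-B it was 0.13.

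PLXNB2, a class B plexin that binds class 4 semaphorins, had 2939 and 3532 in BR-A and BR-B, against 3133 and 2331 in P-A and P-B. The lines overlapped, with a log2 fold change of 0.25 and an interval from -0.31 to 0.82 (adjusted p = 0.511 by limma-trend). PLXND1, the plexin through which SEMA3C and SEMA3E act, had 737 and 778 in BR-A and BR-B, against 1145 and 1013 in P-A and P-B. It was the one listed receptor with both brain metastatic values below both parental ones, but its log2 fold change of -0.51, with an interval from -1.04 to 0.03, did not pass (adjusted p = 0.177 by limma-trend).

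Set against each other, the ligands had a median log2 fold change of -0.15 with 0 higher, 1 lower and 4 not passing, and the receptors a median of 0.53 with 2 higher, 0 lower and 3 not passing. The median of all tested genes was 0.01, with 8.61% of them called higher and 5.80% called lower. In BR-A alone the medians were -0.45 for ligands and 0.13 for receptors, and in BR-B -0.19 and 0.92. The genes were listed with earlier results known and the difference between the 2 sets was not tested.

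To compare levels between genes, reads were expressed as CPM per kilobase of the longest coding transcript (TMM-scaled). The 5 ligands summed to 51.3 and 59.3 CPM per kilobase in BR-A and BR-B, against 65.6 and 63.6 in P-A and P-B. The 5 receptors summed to 128 and 208 CPM per kilobase in BR-A and BR-B, against 79.7 and 69.9 in P-A and P-B. There were thus 0.400 and 0.285 ligand units per receptor unit in the brain metastatic libraries, against 0.823 and 0.910 in the parental libraries, without overlap. NRP1 made up most of that shift: without it, the receptor sum was 42.3 and 54.2 in BR-A and BR-B, against 42.2 and 33.4 in P-A and P-B. The share of NRP1 in the receptor sum was 67.0% and 73.9% in the brain metastatic libraries, and 47.0% and 52.3% in the parental libraries. With 2 libraries against 2, a two-sided exact permutation test cannot give a p below 0.33, so these ratios carry no test.

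**Figure D2:**
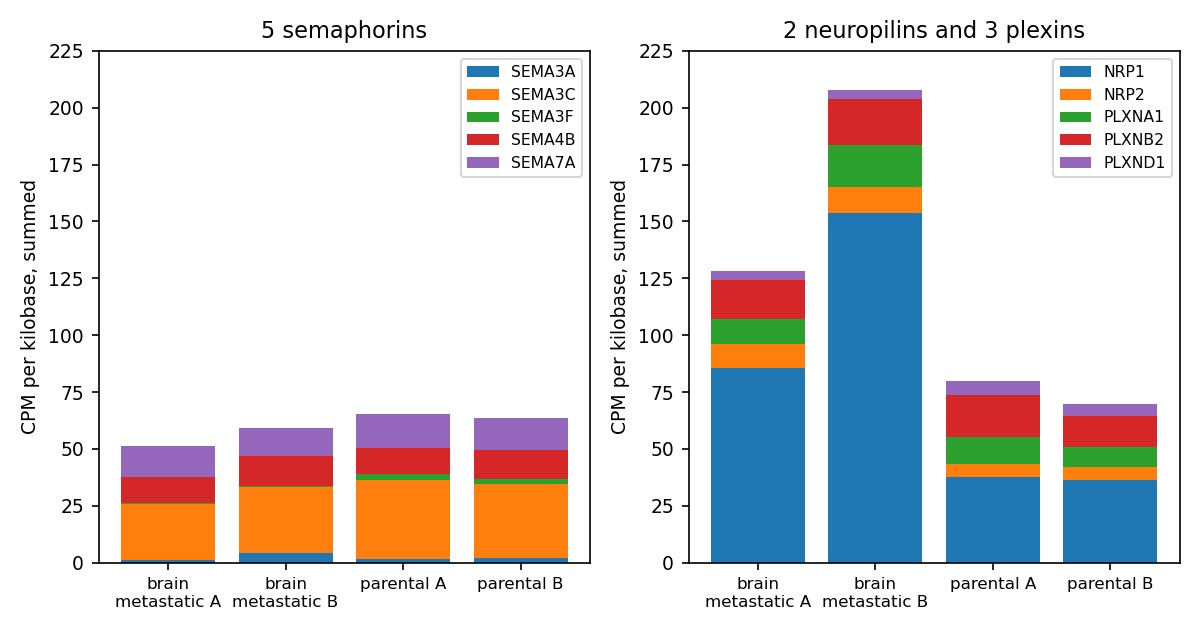
CPM per kilobase of longest coding transcript (vertical), stacked by gene, for the 5 semaphorins (left panel) and the 2 neuropilins and 3 plexins (right panel) in each of the 4 libraries. The receptor columns reach 128 and 208 in the brain metastatic libraries and 79.7 and 69.9 in the parental ones, mostly through NRP1, while the ligand columns stay between 51.3 and 65.6.

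In brain metastatic cells the order of levels per kilobase began with NRP1 at 85.8 and 154, followed by SEMA3C at 24.6 and 28.9 and PLXNB2 at 17.2 and 20.2 in BR-A and BR-B. PLXNA1 reached 18.6 in BR-B and over its libraries overlapped its neighbours PLXNB2, SEMA7A, SEMA4B and NRP2, all of which lay between 10.2 and 20.2. The lowest were PLXND1 at 3.88 in BR-A and slightly more in BR-B, SEMA3A at 1.17 and 4.23, which overlapped it, and SEMA3F at 0.623 and 0.488. In parental cells NRP1 at 37.5 and 36.5 stood close above SEMA3C at 35.0 and 32.9. PLXNB2 and SEMA7A overlapped, as did SEMA4B with PLXNA1 and NRP2 with PLXND1. SEMA3F at 2.46 and 2.07 lay above SEMA3A at 1.57 and 1.91 in parental cells, the reverse of brain metastatic cells.

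Ratios per kilobase between a ligand and its usual receptor followed from these levels. SEMA3F per NRP2 was 0.0610 and 0.0427 in BR-A and BR-B, against 0.413 and 0.370 in P-A and P-B. SEMA3C per NRP1 was 0.287 and 0.188 in BR-A and BR-B, against 0.933 and 0.900 in P-A and P-B. SEMA3A per NRP1 was 0.0136 and 0.0276 in BR-A and BR-B, against 0.0420 and 0.0523 in P-A and P-B. Each of the 3 ratios was lower in both brain metastatic libraries than in either parental library.

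Of the rest of the family, PLXNA3, PLXNC1 and SEMA6A rose, and PLXNA4 and SEMA3G met the count filter in 1 line alone. PLXNC1, the plexin that binds SEMA7A, had normalized counts of 469.6 and 659 in BR-A and BR-B, against 146 and 178 in P-A and P-B. It lay above both parental libraries in each brain metastatic library, with a log2 fold change of 1.78 ± 0.30 (SE, adjusted p = 0.00803 by limma-trend). Since SEMA7A itself was nearly level, SEMA7A per PLXNC1 was 5.66 and 3.78 per kilobase in BR-A and BR-B, against 20.1 and 15.8 in P-A and P-B. PLXNA3, a class A plexin used with NRP2, had 548 and 1280.1 in BR-A and BR-B, against 311 and 260.0 in P-A and P-B. BR-B was the higher by far, and the log2 fold change was 1.56 ± 0.40 (SE, adjusted p = 0.0364 by limma-trend), 2.17 without BR-A and 0.95 without BR-B.

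SEMA6A, a transmembrane semaphorin that binds PLXNA2 and PLXNA4, had 115 and 132 in BR-A and BR-B, against 19.6 and 26.2 in P-A and P-B. Both pairs were close together, with a log2 fold change of 2.39 ± 0.39 (SE, adjusted p = 0.00710 by limma-trend). Of PLXNA3, PLXNC1 and SEMA6A, none was called without P-A or without P-B, with adjusted p up to 0.231.

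PLXNA4, the class A plexin that receives SEMA3A and SEMA6A, had 30 and 136 reads in BR-A and BR-B, against 3 and 8 reads in P-A and P-B. SEMA3G, a secreted semaphorin that binds NRP2, had 10 and 9 reads in BR-A and BR-B, against 58 and 31 reads in P-A and P-B. PLXNA4 passed the filter on low counts through the brain metastatic libraries alone and SEMA3G through the parental libraries alone. Keeping a gene in that way favours a difference, so their values are given as a description and their calls support nothing.

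**Figure D3:**
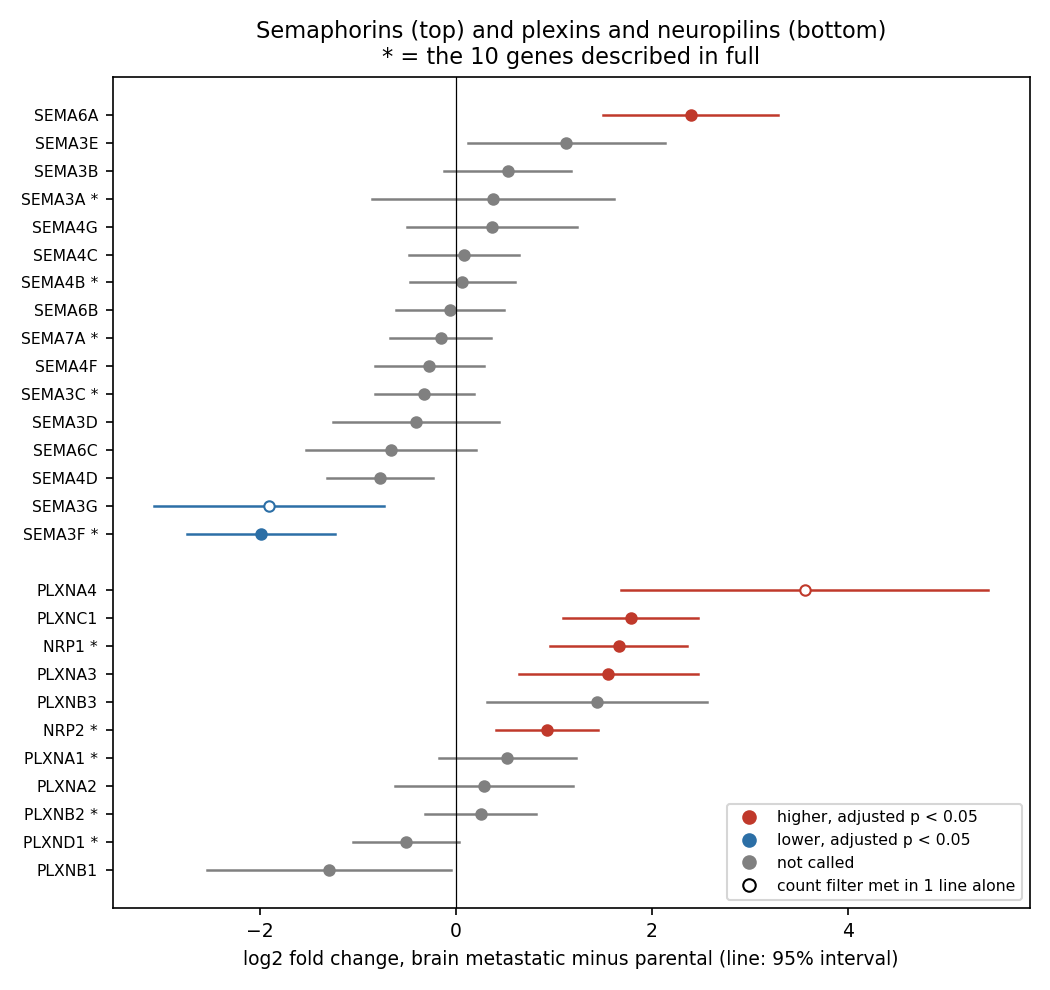
Log2 fold change, brain metastatic minus parental (horizontal), with its 95% interval from limma-trend for the 16 tested semaphorins (top) and the 11 tested plexins and neuropilins (bottom). Red marks genes called higher, blue genes called lower and grey genes not called, and an asterisk the 10 listed genes. Open circles are PLXNA4 and SEMA3G, which met the count filter in 1 line alone. Called receptors lie only to the right of 0 with all 4 libraries, whereas called semaphorins lie on both sides.

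In all, 28 of 31 family genes had a row and 27 were tested. SEMA4A, with 1 to 5 reads per library, was not, and SEMA5A, SEMA5B and SEMA6D were not analysed here. The 16 tested semaphorins had 1 higher, 2 lower (SEMA3G among them) and 13 not passing, with a median log2 fold change of -0.11. The 11 tested plexins and neuropilins had 5 higher (PLXNA4 among them), 0 lower and 6 not passing, with a median of 0.93, against 8.61% of all tested genes called higher and 5.80% called lower. Without BR-A the receptors had 8 higher and 0 lower and the semaphorins 3 higher and 2 lower, in a fit that called 19.8% of all genes higher and 16.7% lower. Without BR-B the receptors had 5 higher and 1 lower, PLXNB1 (log2 fold change -2.05, adjusted p = 7.05e-05), and the semaphorins 1 higher and 3 lower, where 11.6% of all genes were called higher and 10.2% lower. Without P-A or P-B, 0 family genes were called, in fits that called 2.92% and 2.97% of all genes. Whether receptors moved more often than ligands was not tested.

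The family genes that did not pass included several with intervals on 1 side of 0. PLXNB3, a class B plexin, had normalized counts of 93.1 and 254 in BR-A and BR-B, against 61.4 and 51.4 in P-A and P-B (log2 fold change 1.44, adjusted p = 0.0867 by limma-trend). PLXNB1, the receptor of SEMA4D, had 16.3 and 48.7 in BR-A and BR-B, against 70.0 and 71.8 in P-A and P-B (-1.29, adjusted p = 0.145). SEMA4D had 785 and 917 in BR-A and BR-B, against 1540.0 and 1373 in P-A and P-B (-0.78, adjusted p = 0.0626), and DESeq2 called it lower (adjusted p = 0.0269) and PLXNB3 higher (adjusted p = 0.0178). SEMA3E, the ligand that binds PLXND1 without a neuropilin, had 42.3 and 63.6 in BR-A and BR-B, against 22.2 and 24.3 in P-A and P-B (1.13, adjusted p = 0.123).

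PLXNA2, a class A plexin, had 1081 and 2461 in BR-A and BR-B, against 1648 and 1086 in P-A and P-B, a spread within each line larger than the gap between them (log2 fold change 0.29, adjusted p = 0.655 by limma-trend). SEMA3B and SEMA4G had log2 fold changes of 0.53 and 0.37 without passing. SEMA4C and SEMA6B lay at 0.08 and -0.06, and SEMA4F, SEMA3D and SEMA6C at -0.27, -0.41 and -0.66, with adjusted p from 0.235 to 0.886 over these 7 genes.

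The receptors as a group were higher in BR-B than in BR-A. All 11 tested plexins and neuropilins were higher in BR-B, with a median log2 difference of 0.88, and so were 10 of the 16 semaphorins, with a median of 0.17. Over all tested genes 7216 of 14424 were higher in BR-B and the median difference was 0.00. The largest of these differences among the receptors was that of PLXNA4 at 2.28, and the smallest that of PLXND1 at 0.08. BR-B is the one with more interferon-stimulated and mitochondrial pseudogene reads, and their part in these differences was not tested.

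**Figure D4:**
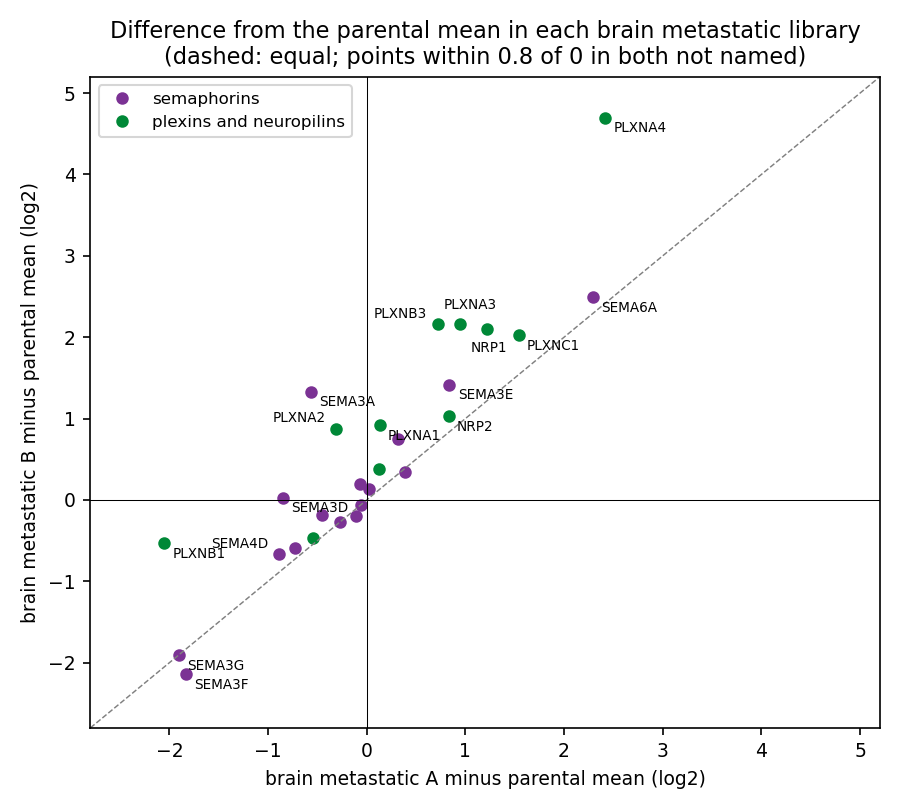
Log2 difference from the parental mean in BR-A (horizontal) and BR-B (vertical) for each tested semaphorin (purple) and each plexin or neuropilin (green); the dashed line marks equal differences. All 11 receptors lie above the line, SEMA3A lies at -0.56 in BR-A and 1.33 in BR-B, and SEMA3F and SEMA3G lie near the line below 0 in both.

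Of the receptor partners and rival ligands, 15 were tested, with 5 higher, 0 lower and 10 not passing, against 8.61% of all tested genes called higher and 5.80% called lower, and a median log2 fold change of 0.37. KDR, the VEGF receptor that pairs with NRP1, had 519.5 and 603 in BR-A and BR-B, against 53.8 and 77.6 in P-A and P-B (log2 fold change 3.10 ± 0.32 SE, adjusted p = 0.00112 by limma-trend). KDR is also known from endothelium, and of 5 endothelial markers PECAM1 had 193 and 218 in BR-A and BR-B, against 70.8 and 146 in P-A and P-B, CDH5 was near 0 as given above, and TEK, VWF and CLDN5 were not analysed here. PTK7, a pseudokinase that associates with class A plexins in frog embryos, had 4655 and 4471 in BR-A and BR-B, against 840.4 and 900.2 in P-A and P-B (2.39 ± 0.22 SE, adjusted p = 0.000719). NRCAM, an adhesion molecule that associates with NRP2, had a log2 fold change of 2.18 (adjusted p = 0.00382), a call lost without P-B (adjusted p = 0.0540). Named after their values were seen, VEGFC, a ligand of NRP2, had a log2 fold change of 1.32 (adjusted p = 0.0241) and the proteoglycan gene CSPG4 1.68 (adjusted p = 0.00894). Both calls were lost without P-A and without P-B. Of the other VEGF ligands, VEGFA, PGF and VEGFB did not pass, at 0.68, 0.34 and -0.15 (adjusted p = 0.246, 0.420 and 0.725 by limma-trend). VEGFA had 4513 and 10657 in BR-A and BR-B, against 4230 and 4416 in P-A and P-B. The list had 3 called without P-A and 2 without P-B, all higher, where 2.92% and 2.97% of all genes were called. It had 8 higher without BR-A, and 6 higher and 1 lower without BR-B, where 36.4% and 21.8% of all genes were called.

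Semaphorins are cut by proteases, and 9 of these were tested, with 3 higher, 2 lower and 4 not passing, against 8.61% of all tested genes called higher and 5.80% called lower. Their median log2 fold change was 0.92, and 0.59 under a stricter filter on mean level that left 8 of them, without PCSK6. PCSK6, which was not called, had 29 and 30 reads in BR-A and BR-B, against 7 and 15 in P-A and P-B. It met the filter on low counts through the brain metastatic libraries alone, which favours a difference between the lines. The median of 0.92, which includes it, is a description. FURIN, the convertase that processes class 3 semaphorins, had 834 and 803 in BR-A and BR-B, against 2676 and 2222 in P-A and P-B. Both brain metastatic values lay below both parental values (log2 fold change -1.57 ± 0.23 SE, adjusted p = 0.00470 by limma-trend), a call lost without P-A (adjusted p = 0.0731). PCSK5, a related convertase, had 412 and 527 in BR-A and BR-B, against 70.0 and 89.2 in P-A and P-B (2.54 ± 0.31 SE, adjusted p = 0.00231). ADAMTS1, which cleaves SEMA3C, had 3071 and 3035 in BR-A and BR-B, against 217 and 242 in P-A and P-B (3.73 ± 0.23 SE, adjusted p = 0.000158). MMP14, a membrane metalloprotease, had a log2 fold change of 1.53 (adjusted p = 0.0151) and the sheddase gene ADAM10 -0.81 (adjusted p = 0.0469), and both were lost without either parental library, at adjusted p up to 0.362. The ADAM10 call was also lost with no filter beyond 1 read.

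Of the cytoplasmic effectors, 38 were tested, with 2 higher, 3 lower and 33 not passing, a share of 13.2% called against 14.4% of all genes, and a median log2 fold change of -0.08. DPYSL2, the collapsin response mediator that carries the SEMA3A signal to microtubules in neurons, had 6601 and 7018 in BR-A and BR-B, against 2024 and 1868 in P-A and P-B (log2 fold change 1.81 ± 0.21 SE, adjusted p = 0.00208 by limma-trend). DPYSL3, of the same family, had a log2 fold change of 2.29 (adjusted p = 0.00615). The lower genes were RHOD, a plexin-binding GTPase (-2.90, adjusted p = 0.00225), LIMK1, the kinase of cofilin (-1.63, adjusted p = 0.00396), and TIAM1, an exchange factor for RAC1 (-1.49, adjusted p = 0.00853). With 1 library left out in turn, the log2 fold change of DPYSL2 ranged from 1.75 to 1.86. The call of RHOD was lost without P-B, that of LIMK1 without P-A, and those of DPYSL3 and TIAM1 without either parental library. Over the fits that left out 1 library, the median log2 fold change of the list ranged from -0.17 (without P-B) to 0.02 (without P-A).

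By the Euclidean distance between log2 values centred on their mean over the 4 libraries, the genes with patterns closest to SEMA3F were SKP2 (distance 0.13), HTR1D (0.14) and HSPA12A (0.16), with log2 fold changes of -1.98, -1.88 and -2.14. Those closest to NRP1 were ZSCAN30 (0.07), TMEM173 (0.10) and RHPN1 (0.12), with log2 fold changes of 1.68, 1.63 and 1.70 and, like NRP1, higher values in BR-B than in BR-A. The search covered 14423 genes over 4 libraries.

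Some reads of these genes may belong to overlapping genes, since the strand setting of the counting is not given in the sources used here. In GENCODE v29, exons of the antisense genes AL121748.2, AC007362.1 and SEMA3F-AS1 overlap 561, 147 and 110 exonic bases of NRP1 (chromosome 10), NRP2 (chromosome 2) and SEMA3F (chromosome 3). Their own values were not analysed here, nor were those of SEMA6A-AS1 and SEMA6A-AS2, which overlap 268 and 58 bases of SEMA6A. The same holds for AC073655.2, which overlaps 222 bases of PLXNC1. Exons of PLXNB3 are shared over 1432 bases with SRPK3 on the same strand. Those of PLXNC1, PLXNA3 and SEMA4G overlap CEP83, LAGE3 and MRPL43 on the opposite strand, over 177, 11 and 1170 bases. Counts of the family genes with an overlap are therefore uncertain, to an extent that was not measured. No such overlap was found for the other 7 listed genes.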

How the data were processed

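RNA was isolated with a mirVana kit and sequenced from 2 libraries per line, per the labels' protocols. GRCh37, featureCounts, HISAT2 and DESeq2 appear in the submitters' processing notes, without versions or order. Which annotation, filters and strand setting they used is not given in the sources used here. The deposited values are a normalized signal, reads divided by 1 size factor per library: dividing each column by its smallest value above 0 gave whole reads for 100% of values (tolerance 0.01). Headers name the line alone, which leaves the replicate number of a column unknown. The 67 unnamed rows (0.031% to 0.0369% of reads) were left out, and 20 rows bear dates as names.

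The filter was filterByExpr of edgeR, run on whole reads (minimum count 10, total 15). limma-trend on log2(value + 1) was the test for this unit, with Benjamini-Hochberg adjustment over 14424 genes at 0.05 and 95% intervals from the moderated fit. The pseudocount understates changes of low genes. The quasi-likelihood test of edgeR on whole reads called 2228 genes. Alternatives were edgeR, DESeq2, limma-voom, other scalings, filters and pseudocounts, and leaving out each library. Fits without 1 library assume that the lone library of a line varies like the other line's. One read is worth 0.0325 to 0.0387 CPM. Levels per kilobase use the longest coding transcript of GENCODE v29, a GRCh38 release matched by symbol, and depend on that choice of transcript. The members and lists were chosen with earlier results of these data known. Named were all family genes, up to 3 called genes per direction of each other list, and the 3 genes nearest in pattern to the most changed called ligand and receptor. The interferon list was added after the data were seen. The test was tried on simulated data. Software was Python 3.11.15 and R 4.3.3 with DESeq2 1.42.0, edgeR 4.0.16 and limma 3.58.1.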

Additional observations from a re-analysis of the deposited data

How the results depend on the processing

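The 3 calls among the 10 genes were the same under each of the 9 other tests, scalings, filters and pseudocounts, with 1869 to 2910 calls over all genes. Leaving out 1 library in turn gave 0 to 5 called members (against 3), 421 to 5257 called genes (against 2079) and 12 to 51 called genes of the lists (against 31). The lowest counts came without a parental library and the highest without BR-A. Without a parental library the spread comes from the brain metastatic pair alone, and without a brain metastatic library from the parental pair alone. The median absolute log2 difference was 0.38 within the brain metastatic pair and 0.26 within the parental pair. The part of this difference in the counts was not tested. Ligands per receptor ranged from 0.285 to 0.400 in brain metastatic cells and from 0.823 to 0.910 in parental cells. Log2 fold changes that turned sign, none of a called gene, ranged over these fits from -0.56 (without BR-B) to 1.33 for SEMA3A, -0.068 (without BR-B) to 0.20 for SEMA4B, -0.85 to 0.028 (without BR-A) for SEMA3D, -0.0063 (without P-B) to 0.17 for SEMA4C, -0.16 to 0.039 (without P-B) for SEMA6B, and -0.31 (without BR-B) to 0.88 for PLXNA2, which also turned without P-B (-0.014). Of the called family genes, SEMA3F, SEMA3G, SEMA6A and PLXNA4 rest on under 300 reads per library. SEMA6A had 120 and 125 reads in BR-A and BR-B, against 23 and 27 in P-A and P-B. No paired analysis was possible because the columns carry no replicate numbers.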

Other observations

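Other axon guidance families also held called genes. Of 22 tested slits, netrins, ephrins, repulsive guidance molecules and their receptors, 9 were higher, 2 lower and 11 did not pass, with a median log2 fold change of 0.63 against 0.01 over all tested genes, of which 8.61% were called higher and 5.80% lower. EPHA4, a receptor of ephrins, had normalized counts of 834 and 1256 in BR-A and BR-B, against 46.9 and 66.0 in P-A and P-B (log2 fold change 4.18 ± 0.33 SE, adjusted p = 0.000491 by limma-trend). ROBO1, a receptor of slits, had 2191 and 3713 in BR-A and BR-B, against 381 and 448 in P-A and P-B (2.78 ± 0.30 SE, adjusted p = 0.00141). With 1 library left out in turn, the log2 fold change ranged from 3.88 to 4.47 for EPHA4 and from 2.40 to 3.16 for ROBO1.

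The ephrin gene EFNA1 was called lower (log2 fold change -1.91, adjusted p = 0.0364 by limma-trend), a call lost without either parental library, at adjusted p up to 0.388. DSCAM, a netrin receptor, had 170 and 191 reads in BR-A and BR-B, against 5 and 3 reads in P-A and P-B. EPHB3, an ephrin receptor, had 2 and 20 reads in BR-A and BR-B, against 138 and 93 reads in P-A and P-B. DSCAM, 1 of the 9 higher genes, and EPHB3, 1 of the 2 lower, met the filter on low counts in 1 line alone. That favours a difference between the lines, so their values are a description. The list had 5 called higher without P-A and 6 without P-B, in fits that called 2.92% and 2.97% of all genes.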
